A study of Homo sapiens with 24 samples.

Results

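The 8 genes described here, IRF1, IRF2, IRF3, IRF4, IRF5, IRF7, IRF8, and IRF9, encode interferon regulatory factors, and they were examined for binding of the calcium-binding cytokines S100A8 and S100A9 to the chromatin around them. They are 8 of the 20098 protein-coding genes annotated on chromosomes 1 to 22 and X and were taken as a gene family by name, by a rule that uses no measured value. Peaks were counted at a gene when their q value was at most 1e-07 and their summit lay in the gene body or within 50 kb of it. A promoter peak has its summit in a window that runs from 1500 bp before to 250 bp after any annotated transcription start site (TSS) of the gene.

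The cells were MCF-10A–ER-Src cells, a derivative of the nontransformed human mammary epithelial line MCF-10A in which 4-hydroxytamoxifen (TAM) activates a fusion of the Src kinase to part of the estrogen receptor and thereby starts transformation. All libraries came from this cell line carrying ER-Src and a stably expressed, C-terminally Flag-tagged S100A8 or S100A9, introduced with a retroviral vector in addition to the endogenous genes. Cells received 1 μM TAM for 24 hours or ethanol (EtOH) as the vehicle, and chromatin was immunoprecipitated with a Flag antibody. Peak lists were used for 2 libraries of S100A8 in EtOH, 3 of S100A8 in TAM, 3 of S100A9 in EtOH, and 3 of S100A9 in TAM. The tagged proteins report on ectopic S100A8 and S100A9, and the study describes more of them in the nucleus after TAM. Input and Pol II libraries were not analyzed here. The methods call the replicates biological, but nothing in the labels ties them to separate cultures, so that p values measure only the spread between these libraries, which may be technical.

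The EtOH libraries had 1853 to 4609 peaks with q ≤ 1e-07 (median 4327), and the TAM libraries had 21518 to 40735 (median 24805.5). No read numbers are given, and the depth of the libraries is unknown. In a pool of cells, binding in fewer cells and weaker binding in each cell cannot be told apart. Of 8 markers of basal mammary epithelium, 6 had a promoter peak in at least 4 TAM libraries, among them LAMB3 (4 EtOH and 6 TAM libraries), KRT17 (2 and 5), and CDH3 (1 and 5), which encode a laminin chain, a keratin, and a cadherin. TP63, which encodes a transcription factor of basal cells, had a promoter peak in none of the 11 libraries. Of 8 lymphoid and myeloid markers, CSF1R, a growth factor receptor of macrophages, had promoter peaks (0 EtOH and 4 TAM libraries), and the other 7 had none. Of all genes, 38.5% had a promoter peak in at least 4 TAM libraries and 63.4% in at least 1 library. By peaks within 50 kb, all 8 basal loci and 5 of the 8 lymphoid and myeloid loci had more in TAM by the permutation test used for the family, as did 60.9% of all genes.

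Interferon regulatory factors share a DNA binding domain that recognizes repeats of GAAA in interferon-stimulated and interferon genes. IRF3 and IRF7 are phosphorylated by the kinase TBK1 after viral nucleic acids are sensed and then induce type I interferon genes. Interferons signal through Janus kinases to STAT proteins, and IRF9 joins STAT proteins in the complex that activates interferon-stimulated genes. IRF1 is itself induced by interferon-γ and activates many of the same genes, whereas IRF2 binds the same elements and often opposes it. IRF4 and IRF8 are known for their roles in lymphocytes and myeloid cells, and IRF5 for its role in macrophages and dendritic cells.

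The promoters of IRF1, IRF2, IRF3, IRF7, and IRF9 were bound in TAM, and those of IRF4, IRF5, and IRF8 had no peak with q ≤ 1e-07 in any library. Promoter peaks were present in 2 of 5 EtOH libraries and 6 of 6 TAM libraries for IRF1, in 2 and 6 for IRF2, in 1 and 5 for IRF3, in 0 and 5 for IRF7, and in 0 and 4 for IRF9. Thus 5 of the 8 genes had a promoter peak in at least 1 library, compared with 63.4% of all protein-coding genes, and the same 5 had them in at least 4 TAM libraries, compared with 38.5%. IRF7 and IRF9 had promoter peaks in at least 4 TAM libraries and in no EtOH library, as did 13.9% of all genes.

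The sequences around the promoter summits of IRF1 and IRF2 are shown because these promoters were bound in all 6 TAM libraries and lie mostly outside untranslated sequence. They are from the hg19 (GRCh37) genome, on the strand of the gene, with stretches that the annotation gives as untranslated left out. Capitals mark matches to the searched motifs. The motifs were searched on both strands within 100 bp of a summit. They were the γ-interferon activation site (GAS) TTCNNNGAA, to which STAT proteins bind, the IRF motif GAAANNGAA, the ETS motif CGGAAG, the KLF/SP1 motif CCCCGCCC, the AP-1 motif TGACTCA or TGAGTCA, the CREB motif TGACGTCA, the CEBP motif TTACNNAA or TTGCNNAA, and the NF-kB and CTCF motifs.
IRF1 promoter, chr5:131826470-131826614, minus strand (GAS, KLF/SP1, NF-kB in this order): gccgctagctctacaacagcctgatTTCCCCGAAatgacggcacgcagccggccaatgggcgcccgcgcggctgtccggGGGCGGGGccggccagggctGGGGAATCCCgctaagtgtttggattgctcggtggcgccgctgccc
IRF2 promoter, chr4:185395798-185395998, minus strand (IRF, GAS, ETS, CEBP): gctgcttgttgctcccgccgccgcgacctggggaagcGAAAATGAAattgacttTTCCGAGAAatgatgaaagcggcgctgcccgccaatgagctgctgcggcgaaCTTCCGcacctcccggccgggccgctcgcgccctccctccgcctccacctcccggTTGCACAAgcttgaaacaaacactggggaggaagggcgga

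IRF1 (ENSG00000125347) is annotated from 131776132 to 131844411 on the minus strand of chromosome 5. This span includes minor transcripts that reach far past both ends of the canonical one, whose TSS is at 131826465. The site at that TSS (131825596 to 131827064, summit 49 bp upstream) was called in all 6 TAM libraries and in no EtOH library. Its fold enrichment over input was 9.02, 13.8, and 10.7 in the S100A8 TAM libraries and 13.2, 14.7, and 12.8 in the S100A9 TAM libraries. It was the strongest promoter peak of IRF1 in every TAM library but replicate 3 of S100A8, where a site farther upstream reached 12.0. By fold enrichment, it stood at the 96.7th percentile of all peaks of the library in replicate 2 of S100A8 and between the 94.0th and the 95.6th in the S100A9 libraries, but lower in replicates 1 and 3 of S100A8 (percentiles of 70.0 and 86.3).

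The promoter peaks of IRF1 in EtOH came from another part of the locus. One such site (131832393 to 131833064) is centered 388 bp upstream of the TSS of a minor transcript, 6082 bp away from the canonical TSS. Peaks were present there in 2 S100A9 EtOH libraries, with fold enrichments of 8.90 and 8.76, and in 5 TAM libraries. A neighboring site (131831894 to 131832314) had peaks in 5 TAM libraries, but none in EtOH. A further site (131833963 to 131834260), 7638 bp upstream of the canonical TSS and outside any promoter of IRF1, was called in 1 EtOH and 5 TAM libraries and contains an AP-1 motif. The sequences of the site with EtOH peaks and of the site with the AP-1 motif are shown because they are the IRF1 sites nearest to the canonical promoter that were called in EtOH.
IRF1 upstream site with EtOH peaks, chr5:131832447-131832647, minus strand (KLF/SP1 in capitals): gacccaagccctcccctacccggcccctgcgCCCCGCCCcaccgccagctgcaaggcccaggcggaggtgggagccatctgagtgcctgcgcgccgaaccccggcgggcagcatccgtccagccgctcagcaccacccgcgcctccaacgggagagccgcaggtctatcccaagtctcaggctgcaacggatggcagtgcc
IRF1 upstream site with AP-1, chr5:131834003-131834203, minus strand (AP-1 in capitals): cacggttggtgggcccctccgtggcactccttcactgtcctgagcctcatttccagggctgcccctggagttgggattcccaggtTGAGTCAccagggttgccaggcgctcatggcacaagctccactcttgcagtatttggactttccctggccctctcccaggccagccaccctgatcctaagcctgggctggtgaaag

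Over the whole IRF1 locus, there were 2 and 1 peaks for S100A8 with the vehicle and 11, 8, and 9 with TAM. For S100A9, there were 1, 2, and 2 peaks with the vehicle and 12, 7, and 13 with TAM. Every TAM library was above every EtOH library. The mean difference over both proteins was 8.42 peaks (two-sided exact permutation test of the libraries within each protein, p = 0.01, the smallest that the 200 arrangements allow; adjusted p = 0.0242 by the Benjamini-Hochberg method over all genes). With the canonical transcript in place of the annotated span, the difference was 5.17 peaks. A further confident IRF1 site, in the body of a minor transcript (131783763 to 131784050), was called in 2 S100A9 TAM libraries. The site within 50 kb that was called most often (131892370 to 131893046) lies 5 bp upstream of the TSS of RAD50, a DNA repair gene, and was called in 2 EtOH and 6 TAM libraries.

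**Figure D1:**
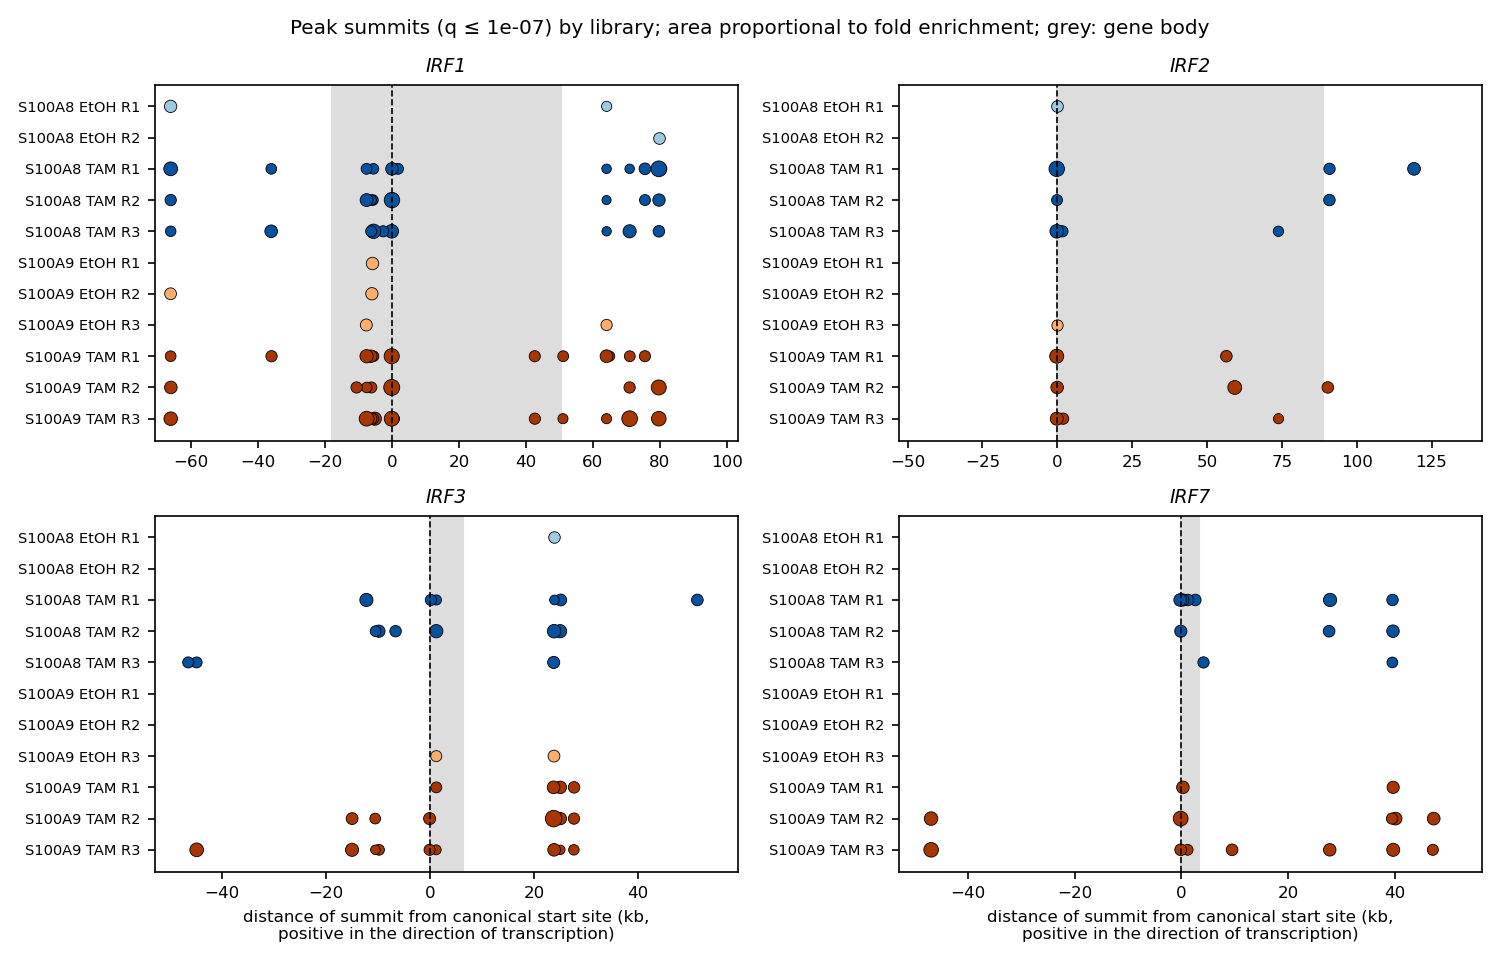
Summits of all peaks with q ≤ 1e-07 at IRF1, IRF2, IRF3, and IRF7, by library (rows) and distance from the canonical TSS in kb (horizontal axis, positive in the direction of transcription). The area of a point is proportional to fold enrichment over input, blue is S100A8, orange to brown is S100A9, dark colors are TAM, the gray band is the annotated gene body, and the dashed line is the canonical TSS. At IRF1, all 6 TAM libraries and no EtOH library have a summit at the dashed line, whereas 2 EtOH libraries of S100A9 have a promoter summit about 6 kb upstream.

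IRF2 (ENSG00000168310, chromosome 4, 185306856 to 185395712, minus strand) had promoter peaks of both proteins in both treatments. In EtOH, however, only 1 library of each protein had one, so that the site reached at least 2 replicates in TAM alone. Its promoter site (185395531 to 185396235) peaked 194 bp upstream of the canonical TSS. For S100A8, its fold enrichment was 7.86 in the EtOH library with a peak and 13.7, 6.89, and 10.7 in the TAM libraries. For S100A9, it was 7.37 in the EtOH library with a peak and 11.4, 9.08, and 9.79 in the TAM libraries. The EtOH value of S100A8 lay within the range of its TAM values, and that of S100A9 lay below its TAM values. Of the promoter sites of the family, it was the only one with an IRF motif. No other protein-coding gene has its body or TSS in the IRF2 window, which held 1 and 0 peaks in S100A8 EtOH, 3, 2, and 3 in S100A8 TAM, 0, 0, and 1 in S100A9 EtOH, and 2, 3, and 3 in S100A9 TAM. The groups did not overlap within either protein, and the difference was 2.25 peaks (exact permutation test, p = 0.01, adjusted p = 0.0242). A site beyond the 3′ end of the gene (185304711 to 185304906) was called in 2 S100A8 TAM libraries alone and contains AP-1 and NF-kB motifs.

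IRF3 (ENSG00000126456, chromosome 19, 50162826 to 50169132, minus strand) has a head-to-head neighbor, BCL2L12, a gene of the BCL2 family, and all 8 promoter peaks of IRF3 also lay in a promoter window of BCL2L12. Of these, 7 fell at 2 confident sites. The site from 50167683 to 50168097, in intron 2 of the canonical transcript and 1196 bp downstream of its TSS, was called in 1 EtOH and 4 TAM libraries. The site from 50169097 to 50169309, 81 bp upstream of the canonical TSS, was called in 2 S100A9 TAM libraries. The strongest promoter peak had a fold enrichment of 7.23 and 10.2 in 2 of 3 S100A8 TAM libraries, 7.01 in 1 of 3 S100A9 EtOH libraries, and 6.78, 8.41, and 7.13 in the S100A9 TAM libraries. In 4 of the 5 TAM libraries with such a peak, these were the lowest values among the bound promoters of the family.

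The IRF3 locus held 1 and 0 peaks in S100A8 EtOH, 6, 6, and 3 in S100A8 TAM, 0, 0, and 2 in S100A9 EtOH, and 4, 6, and 9 in S100A9 TAM. Within each protein, every TAM library had more peaks than every EtOH library, with a difference of 5.08 peaks (exact permutation test, p = 0.01, adjusted p = 0.0242). Of the 37 peaks, 22 lay outside the promoter of IRF3 but in promoters of other genes, in addition to the 8 shared with BCL2L12. The most often called site of the window (50145024 to 50145538) lies 141 bp upstream of the TSS of SCAF1, which encodes an SR-related splicing protein, and was called in 2 EtOH and 6 TAM libraries.

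IRF7 (ENSG00000185507, chromosome 11, 612553 to 615983, minus strand) had no peak within 50 kb in any EtOH library. Its promoter was called in 5 TAM libraries, with fold enrichments of 9.11 and 8.56 for S100A8 and 9.10, 12.6, and 7.98 for S100A9. The locus held 6, 3, and 2 peaks in the S100A8 TAM libraries and 2, 5, and 7 in the S100A9 TAM libraries. The difference was 4.17 peaks (exact permutation test, p = 0.01, adjusted p = 0.0242). The promoter of PHRF1 (576099 to 576631), which encodes a ring finger protein, was the most often called other site, in 0 EtOH and 6 TAM libraries.

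IRF9 (ENSG00000213928, chromosome 14, 24630443 to 24637252, plus strand) lies among 19 other protein-coding genes that reach into its window. Its promoter site (24630163 to 24630599, summit 101 bp upstream of the canonical TSS) was called in 4 TAM libraries, with fold enrichments of 10.2 and 14.3 for S100A8 and 10.5 and 7.61 for S100A9. The window around that summit holds the GAS match TTCTGGGAA (chr14:24630411-24630419) and a CTCF motif and lies wholly in annotated untranslated sequence, so that the rest of it is not printed. The locus held 1 and 3 peaks in S100A8 EtOH, 8, 8, and 7 in S100A8 TAM, 1, 1, and 1 in S100A9 EtOH, and 12, 5, and 10 in S100A9 TAM, and the groups did not overlap. The difference of 6.83 peaks passed the test (exact permutation test, p = 0.01, adjusted p = 0.0242), but 51 of the 57 peaks lay in promoters of other genes. The site of the family with the highest fold enrichment was among them. It lies 29 bp upstream of the TSS of IPO4, an importin gene (24657817 to 24658305), was called in 3 EtOH and 6 TAM libraries, and had fold enrichments from 10.1 to 18.8.

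IRF4 (ENSG00000137265, chromosome 6, 391739 to 411443, plus strand) had no peak within 50 kb in any EtOH library and 2, 2, and 1 peaks in S100A8 TAM and 2, 0, and 2 in S100A9 TAM. The difference of 1.5 peaks did not pass the test (exact permutation test, p = 0.04, adjusted p = 0.0613), but passed within 100 kb (3.33 peaks, adjusted p = 0.0170), as did 75.7% of all genes. The confident site nearby (422830 to 423035), 31188 bp downstream of the canonical TSS and beyond the end of the gene, was called in all 3 S100A8 TAM libraries and in 1 of 3 S100A9 TAM libraries. IRF5 (ENSG00000128604, chromosome 7, 128577511 to 128590092, plus strand) likewise had 0 peaks in the EtOH libraries and had 2, 3, and 1 in S100A8 TAM and 2, 1, and 7 in S100A9 TAM. The difference of 2.67 peaks passed the test (exact permutation test, p = 0.01, adjusted p = 0.0242). Without replicate 3 of S100A9 in TAM, which had 7 of the 16 peaks, the difference was 1.75 peaks. Both of its confident sites lie upstream, nearest to the gene KCP, and the more often called of them (128533197 to 128533512, 44635 bp upstream of the canonical TSS) was called in 4 TAM libraries.

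IRF8 (ENSG00000140968, chromosome 16, 85932722 to 85956212, plus strand) was the least occupied gene of the family. It had 1 peak in replicate 3 of S100A8 TAM, 1 in replicate 3 of S100A9 TAM, and 0 in each of the other 9 libraries, and it had no confident site. Its difference of 0.33 peaks did not pass the test (exact permutation test, p = 0.6, adjusted p = 0.673). It passed the same exact permutation test with every deposited peak (2.83 peaks, adjusted p = 0.0214) and within 100 kb (1.83 peaks, adjusted p = 0.0396). So did 70.1% and 75.7% of all genes, in the same order.

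**Figure D2:**
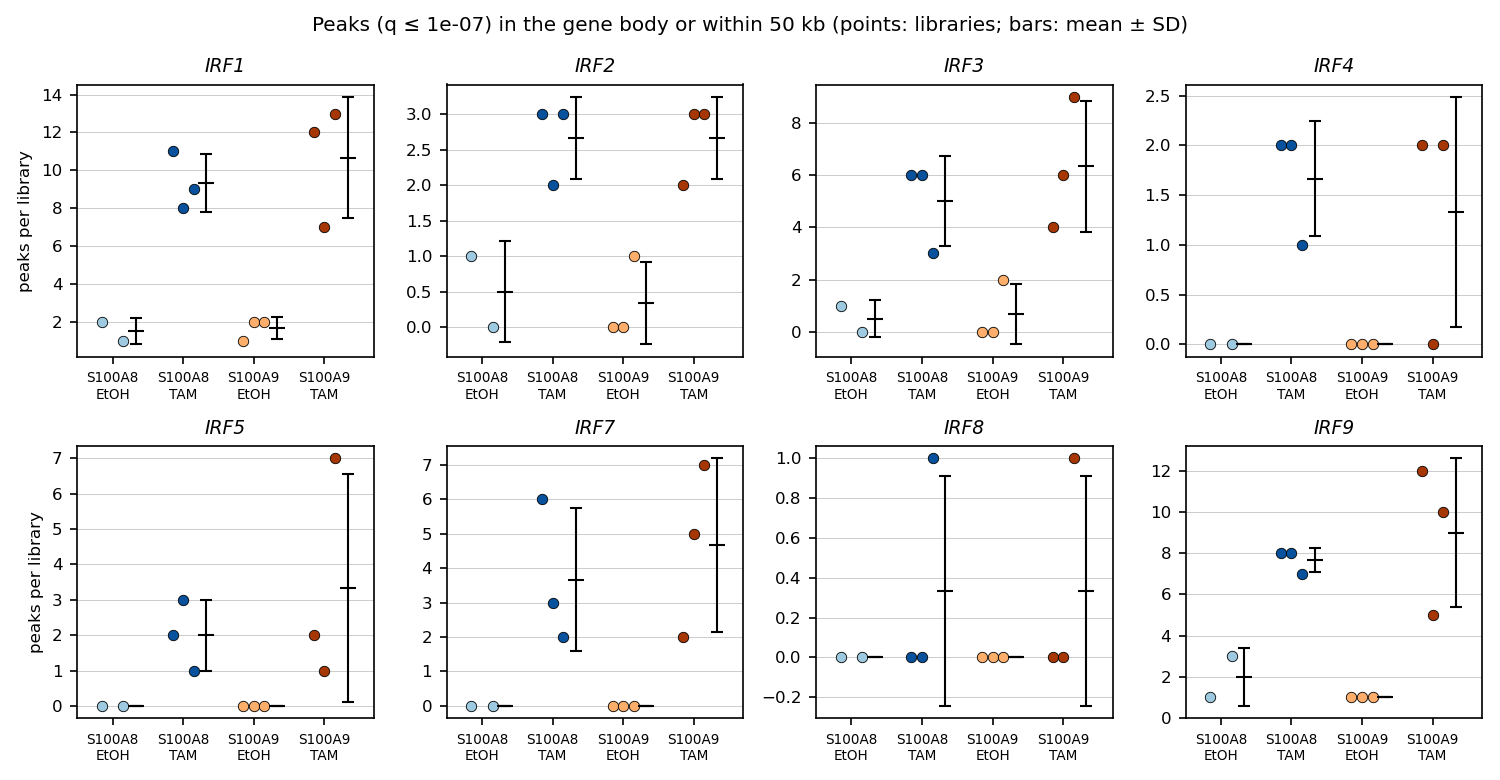
Peaks with q ≤ 1e-07 in the gene body or within 50 kb of each of the 8 genes, in each library (points), with the mean and SD of each group of 2 or 3 libraries (horizontal marks and bars). IRF1 and IRF9 reach the highest numbers in TAM, IRF8 has at most 1 peak, and IRF4 is the other gene for which a TAM library has 0 peaks.

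Across the family, 6 of 8 loci had more peaks in TAM, at an adjusted p of 0.0242 in the exact permutation test, and 0 had fewer. Of all protein-coding genes, 60.9% had more and 0% had fewer. The median difference was 3.42 peaks over the 8 genes and 2.17 over all genes. Within both proteins, every TAM library was above every EtOH library at 6 loci (all but IRF4 and IRF8), as at 41.3% of all genes. An EtOH peak was present at 4 of the 8 loci (IRF1, IRF2, IRF3, and IRF9), compared with 67.7% of all genes. For S100A8 alone, the p value of these 6 loci was 0.2 and for S100A9 alone 0.1, the smallest that exact permutation tests of 2 against 3 and 3 against 3 libraries allow. The 6 calls rest on the number of libraries. Without either of the S100A8 EtOH libraries, the smallest p was 0.025 and neither the family nor any other gene had a call at an adjusted p of 0.05. With the same number of top peaks in every library (1853), the differences at the 6 loci were 0 to 0.25 peaks and none was called, and within 10 kb of the gene bodies none was called either.

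Because TAM lists hold more peaks everywhere, the peaks at each locus were also expressed per 10000 peaks of the same library. On this scale, 0 of the 8 genes and 0% of all genes passed in either direction, and the smallest adjusted p was 0.0921 in the exact permutation test (4109 genes had an unadjusted p of at most 0.05). IRF1 had 3.40 ± 1.73 peaks per 10000 (SD, n = 2) for S100A8 in EtOH and 3.75 ± 0.433 (n = 3) in TAM, and 5.98 ± 4.25 (n = 3) for S100A9 in EtOH and 3.61 ± 0.964 (n = 3) in TAM. IRF9 had 4.41 ± 2.97 and 3.10 ± 0.326 for S100A8 and 3.45 ± 1.71 and 3.08 ± 1.42 for S100A9, in the same order. For both genes, the EtOH and TAM values overlapped. IRF7 had 0 in the EtOH libraries, 1.41 ± 0.574 for S100A8 in TAM, and 1.53 ± 0.670 for S100A9 in TAM (n = 3 each), which gave the largest difference in share within the family, 1.47 peaks per 10000 (exact permutation test, p = 0.01, adjusted p = 0.0921). IRF5 followed with 0.88 (exact permutation test, p = 0.01, adjusted p = 0.0921). A count of 0 stays 0 on this scale, however short the list. For IRF7 and IRF5, the share test therefore gave the same unadjusted p as the test of the counts. It cannot correct for the shorter EtOH lists at these 2 loci. With every deposited peak in place of those with q ≤ 1e-07, the difference of IRF7 was -0.933 and that of IRF5 -0.391.

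**Figure D3:**
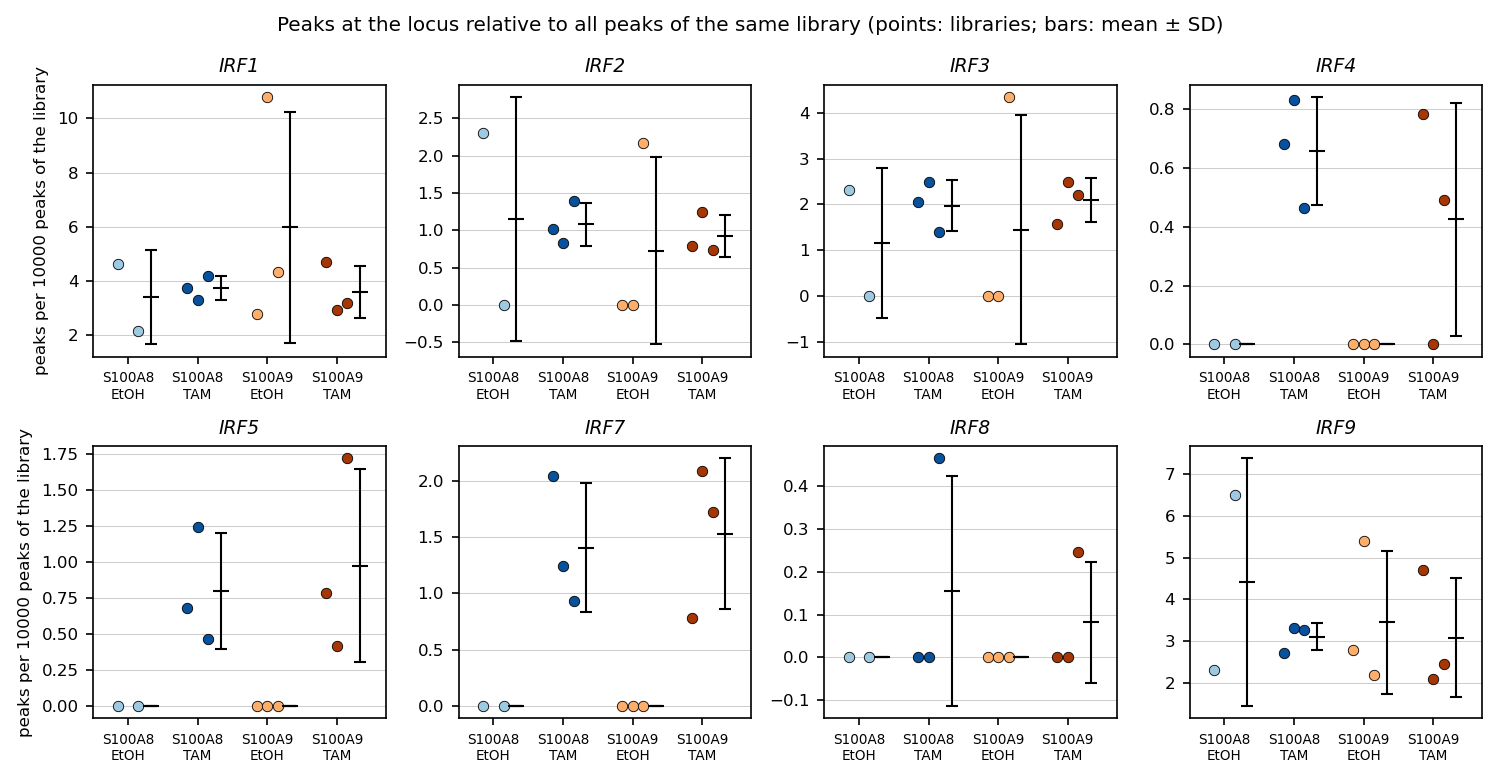
Peaks at each locus per 10000 peaks of the same library (points), with the mean and SD of each group (horizontal marks and bars), for the 8 genes. At IRF1, IRF2, IRF3, and IRF9 the EtOH libraries spread around the TAM libraries, whereas at IRF5 and IRF7 all EtOH libraries are at 0 and all TAM libraries above it. A count of 0 stays 0 on this scale, however short the list.

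At promoters, the change from EtOH to TAM did not pass the test for any of the 8 genes (exact permutation test, smallest adjusted p = 0.327, for IRF7, unadjusted p = 0.03), nor for any other gene (0%, with 2461 genes at an unadjusted p of at most 0.05). Even a complete separation did not pass. TBK1, with promoter peaks in 0 EtOH and 6 TAM libraries, had an adjusted p of 0.319 in this test, the smallest value of any gene. The test therefore could not decide whether a promoter changed. When the canonical TSS alone defined the promoter, IRF1 had promoter peaks in 0 EtOH and 6 TAM libraries, IRF3 in 0 and 3, and IRF7 in 0 and 4, and the numbers of IRF2 and IRF9 were as before. Replicate 3 of S100A8 TAM, whose list was the shortest of the TAM libraries with 21518 peaks, had no promoter peak at IRF3, IRF7, or IRF9, and replicate 2 of S100A9 TAM had none at IRF9.

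**Figure D4:**
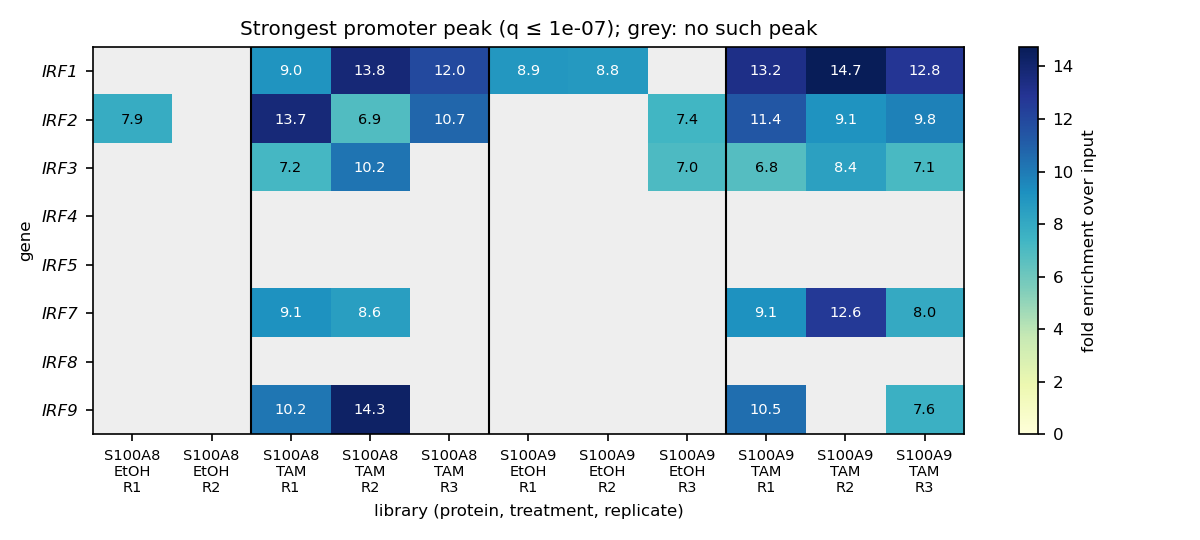
Fold enrichment over input of the strongest promoter peak of each gene (rows) in each library (columns), with gray where no promoter peak had q ≤ 1e-07. IRF1 ranges from 8.76 in EtOH to 14.7 in TAM, IRF7 and IRF9 are gray in the 5 EtOH libraries, and IRF4, IRF5, and IRF8 are gray throughout.

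No difference between S100A8 and S100A9 passed the test at these loci. With the protein permuted within each treatment, 0 of the 8 genes and 0% of all genes passed (exact permutation tests, adjusted p = 1 throughout, with 149 genes at an unadjusted p of at most 0.05). The difference between the proteins in the effect of TAM passed for none either (0% of all genes, exact permutation tests, adjusted p = 1, with 429 genes at an unadjusted p of at most 0.05). In TAM, the mean number of peaks was 9.33 ± 1.53 for S100A8 and 10.7 ± 3.21 for S100A9 at IRF1, 7.67 ± 0.577 and 9 ± 3.61 at IRF9, and 2.67 ± 0.577 for both at IRF2 (SD, n = 3). These groups are small, and a p value that misses the threshold does not show that the proteins bind alike. At the IRF1 and IRF2 promoter sites, the median summits of the S100A8 and S100A9 peaks lay 72 and 1 bp apart.

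By peaks in TAM, the genes ranked IRF1 (10 ± 2.37), IRF9 (8.33 ± 2.42), IRF3 (5.67 ± 2.07), IRF7 (4.17 ± 2.14), IRF5 (2.67 ± 2.25), IRF2 (2.67 ± 0.516), IRF4 (1.5 ± 0.837), and IRF8 (0.333 ± 0.516; SD, n = 6 libraries each). The ranges of neighbors in this order overlapped. Since the windows differ in length, the mean number was also taken per 100 kb of window. It was then highest for IRF9 (7.80), followed by IRF1 (5.94), IRF3 (5.33), IRF7 (4.03), IRF5 (2.37), IRF2 (1.41), IRF4 (1.25), and IRF8 (0.270). Among all genes, IRF9 stood at the 97.3rd percentile of this measure and IRF8 at the 12.3rd. The measure also counts peaks in promoters of other genes, which held 51 of the 57 peaks at IRF9. Other protein-coding genes that reach into the window numbered 19 for IRF9 and 0 for IRF8.

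Summed over the libraries, the 8 loci had 232 peaks, 20 in EtOH and 212 in TAM. Of these, 50 lay in the promoter of the gene itself, 21 elsewhere in its body, 96 (41.4%) outside these but in the promoter of another protein-coding gene, and 65 elsewhere within 50 kb. IRF1 had the most peaks in its own promoters (21) and body (10), and for IRF2 the promoter and body held 14 of 18 peaks. For IRF5 and IRF4, 13 of 16 and 8 of 9 peaks lay outside promoters and the gene body.

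**Figure D5:**
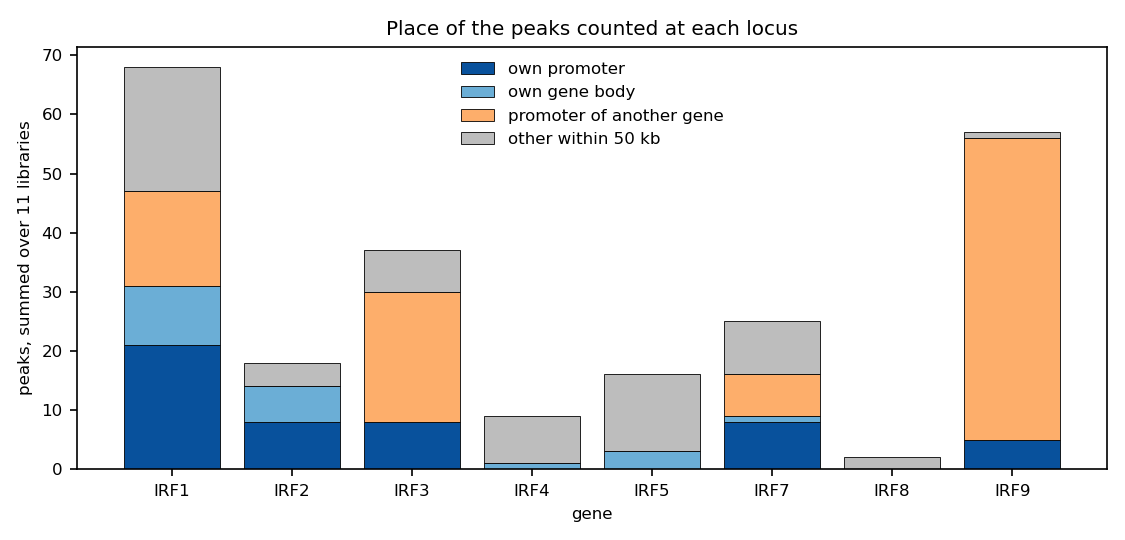
Peaks with q ≤ 1e-07 counted at each gene, summed over the 11 libraries (bar height), and divided by the place of the summit (colors). Each peak is counted once, with the gene's own promoter taking precedence. Peaks in promoters of other genes alone make up 51 of 57 peaks at IRF9 and 22 of 37 at IRF3, where the 8 own-promoter peaks also lie in a promoter of BCL2L12.

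Confident sites, which are merged regions with peaks in at least 2 replicates of a condition, numbered 38 at the 8 loci (IRF1, 12; IRF9, 9; IRF3, 7; IRF7, 5; IRF2, 2; IRF5, 2; IRF4, 1; IRF8, 0). All 38 were confident in TAM. The upstream IRF1 site and the IPO4 site were also confident for S100A9 in EtOH. Of the 38 sites, 7 were called in all 6 TAM libraries, compared with 14.3% of the 30322 confident sites of the whole genome, and 13 in at least 1 EtOH library, compared with 31.1%. IRF3 and IRF7 had 4 and 3 sites without replicate 2 or 3 of S100A9 TAM, IRF2 had 1 without replicate 1 or 2 of S100A8 TAM, and IRF5 had 1 without replicate 1 or 3 of S100A9 TAM. Only 8 of the 38 sites lay in promoters of the family.

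Motifs at promoter sites were counted at the 7 promoter sites of IRF1, IRF2, IRF3, and IRF9. GAS matches were present at 4 of them, at the canonical IRF1 promoter, the neighboring IRF1 site that only TAM libraries called, and the IRF2 and IRF9 promoters. Of all promoter sites, 4.25% had such a match. KLF/SP1 motifs were present at 3 of the 7 (23.1% of all promoter sites), ETS motifs at 2 (25.4%), the NF-kB motif at 1 (4.76%), and the IRF motif at 1 (3.6%). AP-1 motifs were present at 0 of the 7 (8.34% of all promoter sites) but at 6 of the 38 sites in all (25.8% of all confident sites). A CREB motif was found at none of the 38 sites (1.19% of all). Sites of a gene share their locus, and a match only describes the sequence.

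The promoters without a peak were not poorer in G and C. From 250 bp upstream to 50 bp downstream of the canonical TSS, the GC content was 73.8% for IRF4, 72.1% for IRF8, and 70.4% for IRF5, and it was 73.4% for IRF1, 65.1% for IRF2, 64.1% for IRF7, 62.5% for IRF3, and 60.1% for IRF9 (median of 19819 genes, 63.8%).

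The promoters most like those of the family were found by the mean absolute difference, over the 11 libraries, in the percentile of promoter fold enrichment, with 0 where no peak was called. IRF3 was identical to BCL2L12, with which it shares the promoter window. Next to IRF1 were SEC31A (difference of 6.26 percentile points), PRKCH (11), and RNF103-CHMP3 (11.5), and next to IRF2 were LDAH (8.04), GTF2A1 (8.63), and CUL5 (8.74). After BCL2L12, FDXR (4.36) and POLB (4.83) were most like IRF3. DPY19L1 (2.52), CDK9 (2.60), and VRK3 (2.97) were nearest to IRF7, and FXYD5 (2.98), MSRB1 (3.25), and APOO (3.99) were nearest to IRF9.

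The other genes of the interferon pathway were grouped by their roles. None of 10 interferon ligand genes had a promoter peak in any library, and 2 of them, IFNK and IFNL1, had more locus peaks in TAM. Of 6 receptor genes, 3 had promoter peaks in at least 4 TAM libraries. They were IFNGR1 (2 EtOH and 5 TAM libraries), IFNAR1 (1 and 4), and IFNAR2 (0 and 4), which encode chains of the receptors for interferon-γ and type I interferons. All 6 receptor loci had more peaks in TAM. Of the genes that carry the signal on from the receptors, JAK2, which encodes a Janus kinase, had promoter peaks in 1 EtOH and 6 TAM libraries, and STAT2, the partner of IRF9, in 0 and 4. TYK2 and JAK1, which encode other Janus kinases, had them in 0 and 3 and in 0 and 1.

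Of 11 sensors, adaptors, and kinases that act upstream of IRF3 and IRF7, 6 had promoter peaks in at least 4 TAM libraries and 9 had more locus peaks in TAM. TBK1 had promoter peaks in 0 EtOH and 6 TAM libraries, RIGI, the sensor of viral RNA, in 0 and 5, and STING1 and CGAS, which respond to cytosolic DNA, in 1 and 4 each. TICAM1, the adaptor of Toll-like receptor 3, had them in 0 and 5. Of 27 interferon-stimulated genes, 6 promoters were bound in at least 4 TAM libraries and 17 in at least 1 library, and 15 loci had more peaks in TAM. PSMB9 and TAP1, which share a divergent promoter and encode proteins of antigen processing, each had promoter peaks in 1 EtOH and 6 TAM libraries, and ISG15, a ubiquitin-like modifier, in 2 and 4. IFIT1, RSAD2, and CXCL10 were among the 10 interferon-stimulated genes without a promoter peak in any library. OAS3 had promoter peaks in 0 EtOH and 4 TAM libraries, and MX1 and IFI6 in 0 and 3 each. Of 6 feedback inhibitors and cofactors, 5 promoters and 4 loci met these criteria. SOCS3, an inhibitor of Janus kinases, had promoter peaks in 3 EtOH and 6 TAM libraries, and IRF2BP2 and IRF2BPL, which encode proteins of the IRF2-binding family, in 2 and 6 and in 0 and 5. No gene of these lists, of 20098 genes tested, passed the promoter test, not even TBK1 (exact permutation test, adjusted p = 0.319). That test could not decide which of these promoters changed. Of all genes, 38.5% had a promoter peak in at least 4 TAM libraries, 63.4% had one in at least 1 library, and 60.9% had more locus peaks in TAM.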

How the data were processed

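ChIP was performed with a Flag antibody on dually cross-linked chromatin of MCF-10A–ER-Src cells. The authors used Bowtie2 on the hg19 genome, retained uniquely mapped reads alone, and called peaks with MACS2 in each library against its own input. Tool versions were not given in the sources used here. In the deposited lists, the fold enrichment is the ratio of signal at the summit to input, and the −log10 q value is that of MACS2. The lists reach down to about q = 0.05 and give no read numbers, so that depth is unknown, no interval is given, and a lower depth can lower the number of peaks. Unbound sites carry no value, and the read filter of the study cannot be applied to such lists. No 2 lists shared more than 0.011% of their peaks with exactly the same start and end, so that no list was a copy of another. This value does not measure how many peaks overlap between libraries.

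Peaks with q ≤ 1e-07 (−log10 q of at least 7) on chromosomes 1 to 22 and X were assigned to protein-coding genes of GENCODE 44 on GRCh37 by their summits. Libraries were grouped by the labels. Treatments were permuted exactly within proteins (200 arrangements, smallest two-sided p 0.01), and proteins within treatments, with Benjamini-Hochberg adjustment over 20098 genes without a filter on low counts. The test was checked on simulated data. Peaks were merged into sites at an overlap of 1 bp with 2 replicates required.

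The 8 members, the gene lists, the marker lists, and the motifs were chosen with earlier results of these data known. Sites were named by rule: confident sites in a promoter or body of a member, and for each member the other site called in most libraries. Of the listed genes, those called in most libraries were named, with others chosen after their values were seen (TP63, CGAS, TICAM1, IFNK, IFNL1, IFIT1, RSAD2, CXCL10, OAS3, MX1, and IFI6). Python 3.11.15, numpy 2.4.6, and pandas 2.3.3 were used. Alternatives were other q thresholds, equal numbers of top peaks, other distances and promoter windows, genes with peaks in at least 2 libraries, other overlap and replicate requirements, the omission of each library, and a replicate block. The canonical TSS or transcript body was added after seeing the data. The 24 samples of the series include input and Pol II libraries, which were not analyzed here. Values of 1 listed gene and the sequence of 1 site are not reported here.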

Additional observations from a re-analysis of the deposited data

How the results depend on the processing

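The promoter, protein, and interaction tests gave 0 calls among the 8 genes under every alternative run, and 0 among all genes. For promoters, these 0 calls do not show that binding was unchanged, since even a complete separation did not pass in the main test. The 6 calls for more peaks in TAM fell to 3 at q ≤ 1e-10 (IRF1, IRF3, and IRF9), to 0 with the 1853 strongest peaks of each library, and to 0 within 10 kb of the gene body, where IRF1, IRF2, and IRF7 had an adjusted p of 0.0551. They rose to 7 with every peak as deposited (IRF8 added) and to 8 within 100 kb (IRF4 and IRF8 added). The number was 0 to 7 when each library was left out, with 0 without replicate 1 or 2 of S100A8 in EtOH and 7 (IRF4 added) without replicate 2 of S100A9 in TAM. None of the 8 differences turned negative. Over all genes, 12246 loci were called, 5754 at q ≤ 1e-10, 0 under each alternative with 0 calls named here, and 8348 to 9549 when any other library was left out. With every peak as deposited, 14095 of all loci (70.1%) were called, and within 100 kb 15221 (75.7%). The replicate numbers showed no sign of pairing (correlations of deviations from the group means from -0.0445 to 0.0412 over 5 pairs by treatment). With the replicate number as a block, 0 loci were called, since the smallest p of the 32 arrangements is 0.0625, and the share of IRF2 was -0.0159 in place of 0.06 peaks per 10000.

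The number of confident sites, 38, was 75 with every peak as deposited, 22 at q ≤ 1e-10, 3 with equal numbers of top peaks, 12 within 10 kb, 70 within 100 kb, 20 with every replicate required, and 84 with 1 replicate required, and 30 to 38 when each library was left out. With the canonical transcript body, IRF1 had 7 sites in place of 12.

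Per 10000 peaks, no difference passed the test, and several changed sign. With every peak as deposited, the differences of IRF3, IRF4, IRF5, and IRF7 were -0.0771, -0.257, -0.391, and -0.933. With equal numbers of top peaks, those of IRF1 and IRF9 were 1.35 and 0.899, and within 10 kb, 0.126 and 0.297. Within 100 kb, that of IRF8 was -2.15, and with the canonical transcript body, that of IRF1 was 0.325. When each library was left out, IRF1 ranged from -1.81 to 0.195, IRF2 from -0.516 to 0.640, and IRF9 from -1.89 to 0.209. The differences between S100A8 and S100A9 at single genes changed sign in 14 of 152 such values, and those of the interaction in 13 of 152. The cause of these changes was not tested. Since the lists carry no read numbers, binding below the threshold was not detectable.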

Other observations

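IRF5 stood apart from the other promoters below the threshold. When every deposited peak was counted, whatever its q value, the IRF5 promoter had a peak in 4 of 5 EtOH libraries and in 1 of 6 TAM libraries, with a highest −log10 q of 5.02 in EtOH and 2.74 in TAM. The difference in the share of libraries with a peak was -0.667 (two-sided exact permutation test, p = 0.1, adjusted p = 0.860 over all genes), and it is therefore reported as not passing the test. Over all genes, the median of this difference was 0.167 and 0 were called. How many of all genes had such peaks in more EtOH than TAM libraries was not counted. The other promoters had such peaks in at least as many TAM libraries as EtOH libraries. IRF1 and IRF3 had them in all 11 libraries, IRF7 in 4 EtOH and 6 TAM libraries, IRF2 in 3 and 6, and IRF9 in 2 and 6. In EtOH, the highest −log10 q was 6.46 for IRF7 and 4.76 for IRF9. The promoters of IRF4 and IRF8 had no peak of any q value in any library.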
